A study of Mus musculus with 6 samples.

Results

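The trypsinogen and trypsin-like genes described here are Prss1, Prss2, Try4, Try5, Try10, 2210010C04Rik, Gm2663, 1810009J06Rik, Gm5771 and Gm10334, 10 of 31053 genes in the files. They were selected by symbol, with their measured levels in acinar cells, their rise in the EYFP negative pancreatitis library and their free RNA in other cells in view. For those measures the values below are a description, without a test. RNA was counted by droplet sequencing in single cells of the pancreas, from mice of the strain R26[CA]30EYFP (background C57Bl/6J). EYFP is a yellow fluorescent protein, and each of 3 runs gave 1 EYFP positive and 1 EYFP negative library. All 6 libraries share the strain and the background, and the labels give no Cre driver, age or animal per library. Runs 1 and 2 were untreated (homeostasis), and run 3 was taken 9 days after cerulein, a secretagogue that causes pancreatitis in excess, given at 50 ug/kg in 7 injections a day on 2 days. The 4 groups are thus EYFP negative homeostasis (n = 2), EYFP positive homeostasis (n = 2), EYFP negative pancreatitis (n = 1) and EYFP positive pancreatitis (n = 1). Pancreatitis and run 3 cannot be told apart. The labels do not tie a library to an animal, and p-values therefore cover the variation among libraries, which may be technical.

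Trypsinogens are the inactive precursors of trypsin, the protease with which the pancreas starts protein digestion. Acinar cells, which make and secrete the digestive enzymes, store them in granules, and in the gut enteropeptidase cuts a short peptide from them to free trypsin, which then activates the other pancreatic zymogens. Activation inside the acinar cell is a known early event of pancreatitis. The mouse genome holds many trypsinogen genes in tandem, inside the locus of the T cell receptor beta chain.

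Of 4888 kept cells, 575 fell in 2 clusters named acinar-like from enzyme genes other than the 10, and all 18 acinar markers were detected in each library. The EYFP negative libraries held 8, 24 and 370 acinar-like cells in runs 1 to 3, with 49994, 109958 and 3039175 unique molecular identifiers (UMIs, 1 per counted transcript molecule). The EYFP positive libraries held 38, 36 and 99 such cells with 278321, 75575 and 813017 UMIs. The smaller cluster (41 cells, led by Nupr1) supplied 31 of the 36 cells of EYFP positive run 2, 7 of EYFP negative run 2 and 3 of EYFP positive run 1. Malat1, a nuclear RNA, stood at 107694 CPM (UMIs per 1000000 UMIs of the acinar-like sum) in EYFP positive run 2 and 23036 in EYFP negative run 2, against 49.2 to 3809 in the others. Haemoglobin made up 2.17% of the acinar-like UMIs of EYFP negative run 3 and 0.00395% to 0.132% of the others. Transcripts that mark sex also differed between runs. Of all kept cells, 351 (EYFP negative) and 671 (EYFP positive) of run 1 held Xist and no Y-linked transcript, and 0 held the reverse. In run 2 these numbers were 819 and 57 with Xist alone and 272 and 48 with Y-linked transcripts alone, and in run 3 they were 5 and 0 against 643 and 86. The part of sex-linked transcripts, haemoglobin and Malat1 in the results below was not tested. The 2 libraries of a run shared 23, 71 and 47 barcodes in runs 1 to 3, against 0 to 2 between runs. Among acinar-like cells, such barcodes numbered 1, 1 and 0 on the EYFP negative side and 1, 2 and 0 on the other.

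The copies are so alike that reads of one can match another, and the sources used here do not say how such reads were counted. Between the longest GENCODE transcripts, Gm2663 and 1810009J06Rik were 97.2% identical, Try4 and Try5 97.1%, and Prss1 and Gm5771 91.8%. Of all stretches of 90 bases, 72.3% of Gm2663, 70.5% of 1810009J06Rik, 45.1% of Gm10334, 35.3% of Try4, 30.8% of Gm5771, 29.9% of Try5, 27.4% of Prss1 and 16.6% of Try10 also occurred in another transcript, always of a trypsinogen gene or pseudogene. Prss2 and 2210010C04Rik had 0%, so their counts share no such stretch. RefSeq places all 10 on chromosome 6 in the order 1810009J06Rik, Gm2663, 2210010C04Rik, Try4, Try5, Try10, Gm5771, Gm10334, Prss1 and Prss2. Prss3, a trypsinogen gene outside the set, lies between Try10 and Gm5771.

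Promoters of 7 of the 10 were in the RefSeq table (build GRCm38.p6), and the 250 bases before the annotated start are shown for 4 copies that were near 0 in homeostasis and for Try4, which was high in every library. Capitals mark matches, on either strand, to TATAAA (the TATA box), CACCTG (an E-box, bound by basic helix-loop-helix factors such as PTF1A) and TTTCCC (a core bound by RBPJ proteins). No match overlaps another.
Prss1: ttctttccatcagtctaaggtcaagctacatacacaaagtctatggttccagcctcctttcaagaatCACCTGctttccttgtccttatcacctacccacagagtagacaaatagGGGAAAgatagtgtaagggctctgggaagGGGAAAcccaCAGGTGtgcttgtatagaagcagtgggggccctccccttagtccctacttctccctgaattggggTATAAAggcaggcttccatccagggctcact
Gm5771: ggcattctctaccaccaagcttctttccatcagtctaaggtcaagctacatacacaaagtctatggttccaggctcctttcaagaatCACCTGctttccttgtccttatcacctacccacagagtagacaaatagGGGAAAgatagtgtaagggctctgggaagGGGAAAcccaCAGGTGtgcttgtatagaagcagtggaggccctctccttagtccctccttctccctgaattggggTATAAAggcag
Gm10334: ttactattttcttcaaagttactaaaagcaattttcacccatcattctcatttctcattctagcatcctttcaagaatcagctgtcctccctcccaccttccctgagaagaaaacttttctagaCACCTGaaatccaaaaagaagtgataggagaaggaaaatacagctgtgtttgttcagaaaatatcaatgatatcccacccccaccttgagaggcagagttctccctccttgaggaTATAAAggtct
Gm2663: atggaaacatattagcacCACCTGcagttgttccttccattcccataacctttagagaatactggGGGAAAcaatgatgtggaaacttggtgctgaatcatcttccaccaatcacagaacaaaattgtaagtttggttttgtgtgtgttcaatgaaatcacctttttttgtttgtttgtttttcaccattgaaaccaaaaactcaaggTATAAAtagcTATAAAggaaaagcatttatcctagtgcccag
Try4: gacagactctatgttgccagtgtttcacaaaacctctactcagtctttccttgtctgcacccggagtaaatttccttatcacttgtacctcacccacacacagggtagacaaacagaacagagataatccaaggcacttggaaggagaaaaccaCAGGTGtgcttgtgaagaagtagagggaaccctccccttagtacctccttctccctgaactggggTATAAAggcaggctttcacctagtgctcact
Their positions are chr6:41458680-41458929 on the plus strand (Prss1), chr6:41392106-41392355 plus (Gm5771), chr6:41446098-41446347 minus (Gm10334), chr6:40999480-40999729 minus (Gm2663) and chr6:41302022-41302271 plus (Try4). TATAAA and CACCTG were present in 7 of 7 trypsinogen promoters, against 12.4% and 17.2% of all 32851 promoters of the same length. TTTCCC was present in 4 of 7 (Gm2663, Gm5771, Prss1 and Prss2), against 21.95%, and CAAGGTCA, the motif of NR5A2, in 0 of 7, against 1.33%. A match describes letters, not a bound site. The windows of Prss1 and Gm5771 aligned with 226 identical bases and 4 mismatches beside 40 gap positions (83.7% identity), and TATAAA began 31 bases before the annotated start of Prss1 and 11 before that of Gm5771. Prss1 and Try4 were 70.2% identical, and Prss1 and Gm10334 55.2%.

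Prss2, Try4, 2210010C04Rik and Try5 supplied nearly all trypsinogen RNA in each library. Prss2 encodes the main anionic trypsinogen, Try4 and Try5 encode near-identical trypsinogens, and 2210010C04Rik encodes the mouse cationic trypsinogen also named T7. Together these 4 held 99.8%, 99.5% and 98.7% of the trypsinogen UMIs of EYFP negative runs 1 to 3 and 99.7%, 99.1% and 98.3% in the EYFP positive runs. All 10 copies together made up 19.6%, 13.1% and 18.3% of the acinar-like UMIs of the EYFP negative runs, and 20.3%, 4.23% and 19.3% in the EYFP positive runs. EYFP positive run 2 was thus the low library, and its 5 cells of the larger cluster alone stood at 18.6%, with 1.76% in its 31 cells of the smaller cluster.

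Prss2 stood at 69068, 36878 and 58424 CPM in EYFP negative runs 1 to 3 and at 68407, 12716 and 59153 CPM in the EYFP positive runs. 2210010C04Rik stood at 57627, 46118 and 44564 CPM and at 55490, 14502 and 42863 CPM. Try4 stood at 36244, 30166 and 52981 CPM and at 41337, 10083 and 59498 CPM. In these 3 copies run 2 held the lowest EYFP positive value, and only in Try4 were both run 3 libraries above all 4 homeostasis libraries. In the larger cluster alone that separation was lost, since Try4 stood at 53481 CPM in EYFP positive run 2 (5 cells). Try5 stood at 33004, 16779 and 25130 CPM and at 37521, 4618 and 27712 CPM, with its highest values in run 1 of both fractions. Try10 was lower by more than an order of magnitude, at 320.04, 564 and 468 CPM and at 532, 304 and 341 CPM, and its groups overlapped.

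Set against one another within a library, the major copies differed less than in level. The share of trypsinogen UMIs was 28.2% to 35.2% for Prss2, 27.3% to 35.3% for 2210010C04Rik, 18.5% to 23.8% for Try4 and 10.9% to 18.5% for Try5 over the 4 homeostasis libraries. In run 3 Try4 took 28.9% of the EYFP negative and 30.9% of the EYFP positive UMIs, above its whole homeostasis range, and 2210010C04Rik took 24.3% and 22.3%, below its own. In the larger cluster alone Try4 took 28.7% (26.8% to 30.7%) in EYFP positive run 2, within counting error of EYFP negative run 3, and 2210010C04Rik 30.7%. Prss2 (31.8% and 30.7%) and Try5 (13.7% and 14.4%) lay inside their ranges. Prss2 ranked highest in run 1 of both fractions and in EYFP negative run 3, 2210010C04Rik in both run 2 libraries and Try4 in EYFP positive run 3. With UMIs divided by transcript length, which lowers 2210010C04Rik (2142 bases annotated, against 798 to 882 for the others), Prss2 ranked highest in 5 libraries and Try4 in EYFP positive run 3.

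**Figure D1:**
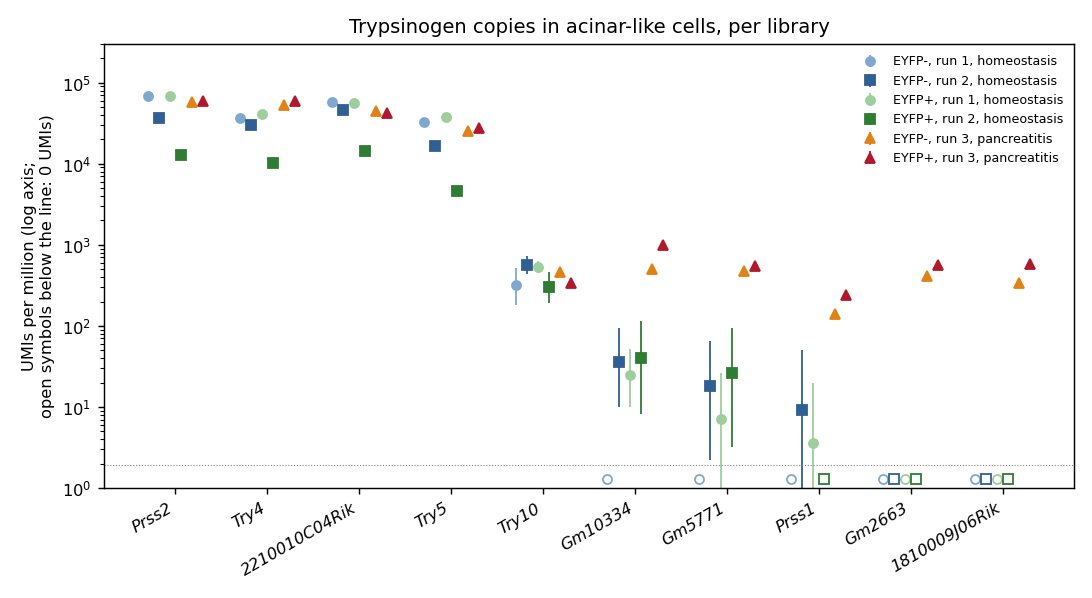
Level of each of the 10 copies in acinar-like cells in CPM on a log axis. Points are the 6 libraries, bars are 95% Poisson intervals of the count, and open symbols under the dotted line are libraries with 0 UMIs. The copies Gm10334, Gm5771, Prss1, Gm2663 and 1810009J06Rik stand at 138.5 to 990.1 CPM in the run 3 libraries and at 0 to 39.7 CPM in the 4 homeostasis libraries.

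The remaining 5 copies, Prss1, Gm5771, Gm10334, Gm2663 and 1810009J06Rik, were almost restricted to run 3. The count of Prss1, whose human namesake is the cationic trypsinogen mutated in hereditary pancreatitis, was 0, 1 and 421 UMIs over EYFP negative runs 1 to 3 and 1, 0 and 198 over the EYFP positive runs, or 0, 9.09 and 139 CPM and 3.59, 0 and 244 CPM. Gm5771 held 0, 2 and 1455 UMIs and 2, 2 and 449 UMIs. Gm10334 held 0, 4 and 1539 UMIs and 7, 3 and 805 UMIs. Both genes are named only as predicted trypsin-like genes. Gm10334 lies next to Prss1, and Gm5409 separates it from Gm5771. Gm2663 held 0, 0 and 1264 UMIs and 0, 0 and 463 UMIs. 1810009J06Rik held 0, 0 and 1028 UMIs and 0, 0 and 473 UMIs. In each of the 5 both run 3 libraries stood above all 4 homeostasis libraries.

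The intervals of counting error were set beside this difference. The 5 copies made up 0 of 9812 trypsinogen UMIs in EYFP negative run 1 (95% Clopper-Pearson interval 0% to 0.0376%). In EYFP negative run 2 they made up 0.0488% (0.0196% to 0.100%). They made up 0.0177% in EYFP positive run 1 (0.00847% to 0.0325%) and 0.156% in EYFP positive run 2 (0.0508% to 0.365%). In run 3 they made up 1.02% of the EYFP negative (0.997% to 1.05%) and 1.53% of the EYFP positive UMIs (1.47% to 1.59%). Both run 3 intervals lie above all 4 homeostasis intervals, which cover counting error only. A UMI of any of the 5 was found in 0, 3 and 339 cells of EYFP negative runs 1 to 3 and in 8, 4 and 87 cells of the EYFP positive runs. Gm10334 had 7 UMIs in 7 cells of EYFP positive run 1 and 805 UMIs in 68 cells of EYFP positive run 3, so the cells with a UMI also held more of them.

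Summed CPM over each group gave the size of the difference. In EYFP positive cells Gm2663 was at least 67.2-fold higher in pancreatitis and 1810009J06Rik at least 68.6-fold higher, with the homeostasis group set to a floor of 3 counts. Prss1 had a ratio of 86.2 (counting interval 15.3 to 3421) on 1 homeostasis UMI, Gm5771 of 48.9 (18.95 to 180.1) and Gm10334 of 35.04 (18.96 to 73.4). In EYFP negative cells, where the members were selected, Gm5771 had a ratio of 38.3 (10.6 to 316) and Gm10334 of 20.2 (7.89 to 74.4). There Prss1 had a ratio of 22.2 (3.96 to 877), Gm2663 was at least 22.2-fold and 1810009J06Rik at least 18.0-fold higher. All 3 values are lower than in EYFP positive cells. The EYFP negative homeostasis sum holds fewer UMIs, which lowers the bounds for Gm2663 and 1810009J06Rik. Of the other 5 copies Try4 had a ratio of 1.65 (1.61 to 1.70) among EYFP negative libraries and one of 1.72 (1.68 to 1.75) among EYFP positive libraries, and Prss2, Try5, Try10 and 2210010C04Rik lay between 0.705 and 1.24. The EYFP positive homeostasis sum is mostly run 1. Against run 2 alone the levels above give far larger ratios for Prss2, Try4, Try5 and 2210010C04Rik, but not for Try10. The fitted median log2 fold change of these 5 copies in EYFP positive cells was 0.69, but 5.28 without EYFP positive run 1, -0.52 without EYFP positive run 2 and -0.01 in the larger cluster alone, so no direction can be given for them.

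The share of all genes with such a difference gives the background. Among 418 genes of at least 50 CPM in both run 3 libraries, 9 (2.15%) had both values at least 4 times the highest homeostasis value. The 5 low copies enter these 418 through run 3 alone, and their rise in EYFP negative run 3 was known when they were selected, so the count supports nothing about them. In the larger cluster alone Gm5771 stood at 180 CPM (21.8 to 652) in the 5 cells of EYFP positive run 2, against 479 and 552 CPM in run 3. It would not meet the rule there. Prss1, Gm10334, Gm2663 and 1810009J06Rik had 0 UMIs in those cells, with intervals up to 333 CPM, above both run 3 values of Prss1 (139 and 244 CPM). The 9 were the 5 low copies, the trypsinogen gene Prss3 and the Reg genes Reg2, Reg3b and Reg3g, which encode secreted lectins known from the injured pancreas. Prss3 stood at 220.03, 81.8 and 1494 CPM in EYFP negative runs 1 to 3 and at 223, 39.7 and 1785 CPM in the EYFP positive runs, with UMIs in each homeostasis library.

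The EYFP positive libraries were compared, 1 against 2, in a fit of all 6 libraries that shares 1 estimate of the spread. In it 0 of 2439 genes passed an adjusted p of 0.05 (0% called, edgeR quasi-likelihood test, Benjamini-Hochberg adjustment, 234 genes under an unadjusted p of 0.05), and so 0 of the 10 copies. The log2 fold changes were 7.41 ± 2.06 for Prss1 (± is the standard error of the fit, adjusted p = 0.162), 6.76 ± 2.24 for Gm5771 (adjusted p = 0.225) and 6.15 ± 2.25 for Gm10334 (adjusted p = 0.333). Gm2663 and 1810009J06Rik were fitted on 0 homeostasis UMIs, and no fold change is given for them. The other 5 copies lay between 0.36 and 1.59 with standard errors of 2.08 to 3.74. In the larger cluster alone 11 of 908 genes passed (1.21%), among them all 5 low copies, but there EYFP positive run 2 is 5 cells with 11088 UMIs and the pancreatitis arm is 1 library. With 1 library left out at a time the log2 fold change ran from 5.89 to 10.8 for Prss1. It ran from 6.10 to 7.38 for Gm5771 and from 5.15 to 7.66 for Gm10334. The size of the difference thus depends on which libraries and which cluster enter.

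The EYFP comparison asks whether labelled and unlabelled acinar cells differ. Between the acinar-like sums of the 2 fractions over all 3 runs 0 of 742 genes passed (0% called by edgeR, with 8 genes at an unadjusted p below 0.05; DESeq2 called 0). The 10 copies had log2 differences from -0.34 ± 1.22 (2210010C04Rik) to 0.95 ± 1.24 (1810009J06Rik) and a median of 0.08, against -0.08 for all genes tested. Their levels in acinar cells were in view at selection, so no p-value is given for them. Standard errors of 0.83 to 1.25 mean that differences of several fold were not detectable here. In the larger cluster alone 4 genes passed and 0 copies.

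Genes linked to the control or activation of trypsinogen, and zymogens that trypsin activates, were set beside the copies. Of 10 trypsinogen control genes 6 could be tested and 0 passed in either comparison. Spink1, the trypsin inhibitor of the granule, stood at 3520, 4747 and 5912 CPM in EYFP negative runs 1 to 3 and at 3722, 1019 and 5899 CPM in the EYFP positive runs, so both run 3 values exceeded all 4 homeostasis values (log2 fold change 1.72 ± 2.73 in EYFP positive cells, edgeR adjusted p = 0.884). Ctrc, which degrades trypsinogen, stood at 80.0, 437 and 275 CPM and at 287, 5041 and 279 CPM, with the high value in EYFP positive run 2 (-0.78 ± 2.17, adjusted p = 0.926, edgeR). The cathepsin genes Ctsl and Ctsd had values of 1.41 ± 1.62 and 0.92 ± 1.47. Of 12 trypsin-activated zymogens 12 were tested in EYFP positive cells, 10 had a positive value (median 0.83) and 0 passed. The chymotrypsinogen gene Ctrb1 stood at 94231, 109296 and 161348 CPM and at 101408, 27324 and 163561 CPM, again with both run 3 values on top. The carboxypeptidase genes Cpa1 and Cpb1, named after their values were seen, went the other way against 3 homeostasis libraries. Cpa1 stood at 38125, 32685 and 18722 CPM and at 36627, 11789.6 and 20749 CPM, and Cpb1 at 44925, 37396 and 22935.5 CPM and at 31205, 10705 and 24624 CPM, with EYFP positive run 2 lowest in both. Pla2g1b, Cela3b and Ctrl had values of 1.23 ± 2.79, 1.42 ± 3.46 and 1.24 ± 3.33. Of 6 acinar transcription factors 5 were tested, with a median of -1.20 (Rbpjl -2.84 ± 2.22, Ptf1a -1.55 ± 1.46, Nr5a2 -1.20 ± 1.61, Xbp1 -0.24 ± 1.76) and 0 passed. The 10 copies had a median of 3.87 and all genes tested one of -0.50. Tmprss15, which encodes enteropeptidase, had 0 UMIs in acinar-like cells of all 6 libraries.

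Over the 6 acinar-like sums, the genes outside the set whose log2 CPM followed the summed copies most closely were Cela1 (Pearson r = 0.990), Ctrl (0.984), Rpl35 (0.979), Rpl12 (0.957) and Rpl36a (0.957), among 151 genes. These points share their library totals, and the low value of EYFP positive run 2 spans most of the range.

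Trypsinogen UMIs also appeared in every other cell class with 10 or more cells, where free RNA from lysed acinar cells is the usual background of droplet data. Over 36 sets of 10 or more cells of 1 class and library the summed copies stood at 85.9 to 19448 CPM with a median of 657, against 42289 to 203323 CPM in acinar-like cells. The highest set, the 11 ductal-like cells of EYFP negative run 3, rested on 1 barcode of 58164 UMIs with 1863 trypsinogen UMIs and stood at 1519 CPM without it. The next highest was 2219 CPM, in pericyte or smooth muscle-like cells of the same library. T or NK-like cells, which should lack the family, stood at 427, 601 and 870 CPM in EYFP negative runs 1 to 3 and at 661, 684 and 507 CPM in the EYFP positive runs. After thinning every cell to 1000 UMIs, 25.4% to 53.7% of T or NK-like cells held a trypsinogen UMI, against 100% of acinar-like cells. Median depths were 2538 to 7567 UMIs in T or NK-like and 1717 to 6497 in acinar-like cells.

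**Figure D2:**
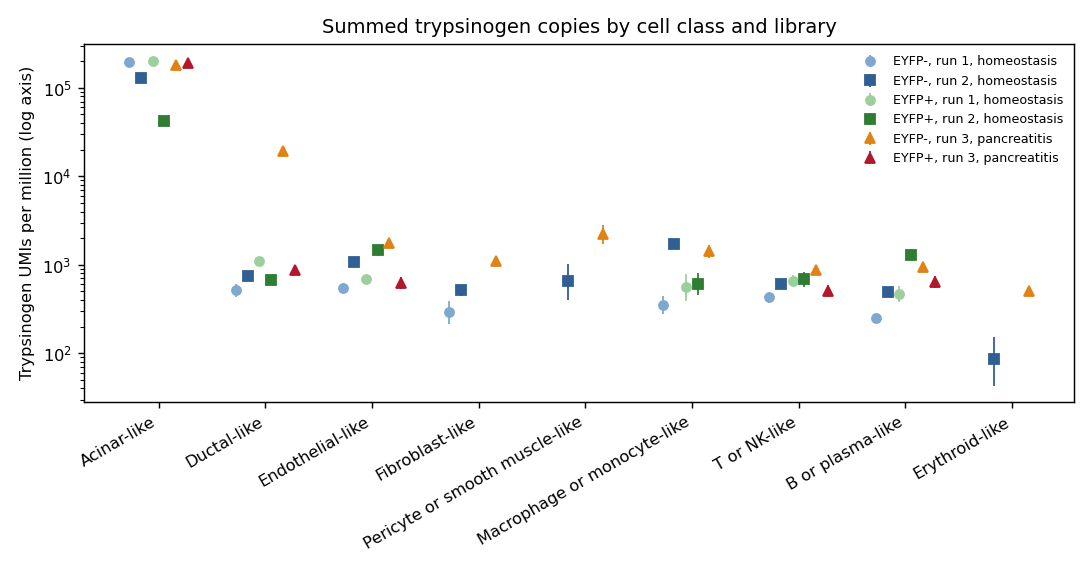
Summed level of the 10 copies in CPM, on a log axis, by cell class and library, for classes with at least 10 cells (acinar-like cells in all libraries). Bars are 95% Poisson intervals. Acinar-like cells stand at 42289 CPM or more, the other classes at 2219 CPM or less apart from the ductal-like set of EYFP negative run 3 at 19448 CPM.

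The make-up of these UMIs was set beside that of acinar-like cells of the same library. In EYFP negative run 3 the 5 low copies made up 81 of 7723 trypsinogen UMIs outside acinar-like cells, 1.05% (0.834% to 1.302%), against 1.02% inside. The single ductal-like barcode named above supplied 1863 of these 7723 UMIs, and the 11 ductal-like cells held 21 of the 81. In EYFP positive run 3 the low copies made up 20 of 982, 2.04% (1.25% to 3.13%), against 1.53%. EYFP negative run 1 had 0 of 1010 (0% to 0.365%), and EYFP negative run 2 had 1 of 5344, 0.0187%. In the EYFP positive homeostasis libraries the share was higher outside, with 38 of 4345, 0.875% (0.620% to 1.198%), against 0.0177% inside in run 1, and 5 of 817, 0.612% (0.199% to 1.42%), against 0.156% in run 2. Of these, 37 of the 38 and all 5 were UMIs in T or NK-like cells. Across the 6 libraries the share of Prss2 was 31.6% ± 2.51 in acinar-like and 29.2% ± 1.28 in other cells (SD, n = 6), higher in acinar-like cells of 5 libraries. 2210010C04Rik had 28.8% ± 5.26 against 31.7% ± 6.61, lower in acinar-like cells of 4 libraries, and Try10 0.335% ± 0.211 against 0.159% ± 0.108, higher in 5. Try4 had 24.3% ± 4.82 against 24.7% ± 3.91 and Try5 14.5% ± 2.73 against 13.5% ± 2.54. These differences carry no test, since levels in both cell sets were in view when the genes were selected.

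Outside acinar-like cells the UMIs of Gm2663 in EYFP positive run 1 and of 1810009J06Rik in EYFP positive run 2 lay in a few T cells. The 81 low-copy UMIs of EYFP negative run 3 lay in 53 cells of several classes, with 21 of them in the 11 ductal-like cells. In EYFP positive run 1, where acinar-like cells held 0 Gm2663 UMIs, T or NK-like cells held 37 in 4 of 44 cells. Of these, 13, 13 and 10 UMIs lay in 3 cells of 16663, 23066 and 11877 UMIs, which also held 48, 36 and 24 UMIs of the T cell receptor gene Trbc2, 2, 1 and 1 of Trbv31 and only 6, 2 and 4 UMIs of the other trypsinogen copies. Trbv31 was found in 3 of the 44 cells, and all 3 held Gm2663. In EYFP positive run 2, 1 T cell held 5 UMIs of 1810009J06Rik beside 37 of Trbc1, and its barcode also occurred in the EYFP negative library of that run. In EYFP negative run 3, 4 of 316 T or NK-like cells held 1 Gm2663 UMI each, and the 1 cell with Trbv31 was not among them.

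Within acinar-like cells thinned to 2000 UMIs, Prss2, Try5 and 2210010C04Rik were found in 100% and Try4 in 99.7% of the 339 cells of EYFP negative run 3. The low copies were found in 15.04% (Prss1), 30.1% (Gm5771), 36.9% (Gm10334), 50.4% (Gm2663) and 33.6% (1810009J06Rik) of them, and in 22.2%, 40.7%, 55.6%, 66.7% and 53.1% of the 81 cells of EYFP positive run 3. The variance of a copy's share was divided by that of multinomial sampling. In EYFP negative run 3 this ratio was 1.80 for Prss1, 6.58 for Gm5771, 4.62 for Gm10334, 1.54 for Gm2663 and 4.71 for 1810009J06Rik, against 4.41 for Prss2. In EYFP positive run 3 it was 2.34, 3.36, 3.996, 1.496 and 1.996, against 3.99. For a like spread in level this ratio grows with a copy's UMIs, so it does not rank copies of unlike level. In the thinned cells of the EYFP negative and positive libraries Prss1 held 84 and 42 UMIs. Gm5771 held 364 and 97, and Gm10334 held 364 and 164.

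Prss1, Gm5771 and Gm10334 varied together from cell to cell. Their 3 pairwise Pearson correlations were 0.46 (Prss1 and Gm5771), 0.52 (Prss1 and Gm10334) and 0.62 (Gm5771 and Gm10334) in EYFP negative run 3, and 0.58, 0.56 and 0.69 in EYFP positive run 3, with Spearman values of 0.36 to 0.49 and 0.50 to 0.68. The correlations of Prss3 with the 3 genes were 0.45 to 0.66 and 0.54 to 0.74. With the 4 major copies the same 3 genes had values of only 0.05 to 0.21 and -0.08 to 0.36, and with Gm2663 and 1810009J06Rik 0.05 to 0.15 and 0.09 to 0.35. Gm2663 and 1810009J06Rik, neighbours at the other end of the locus, formed a pair of their own at 0.34 and 0.42. Cells of 1 library share its depth and free RNA, the grouping was chosen after the values were seen, and stretches shared between these transcripts can place UMIs of 1 gene in another. Among genes outside the 10, the one closest to the summed trio per cell was Prss3 (r = 0.70 in EYFP negative and 0.80 in EYFP positive run 3). The next, Sycn, stood at 0.14 and 0.20. Of the stretches of 90 bases of Prss3, 48.4% also occurred in Gm10334, Gm5771 or Prss1. The part of shared reads in the correlations of Prss3 was not tested. The trio's sum had r = -0.03 and -0.13 with the UMIs of the cell and 0.12 and -0.08 with its enzyme share.

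**Figure D3:**
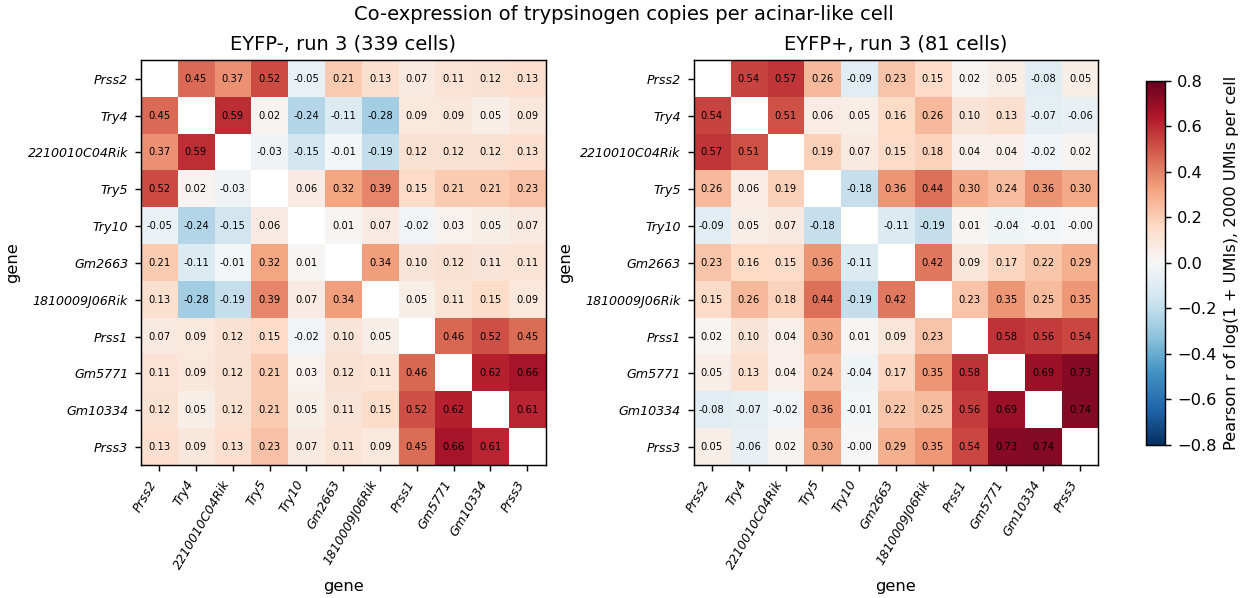
Pearson correlation of log(1 + UMIs) between trypsinogen copies, with Prss3 added, over acinar-like cells thinned to 2000 UMIs in the 2 run 3 libraries. Prss1, Gm5771, Gm10334 and Prss3 form a block of 0.45 to 0.74, and Gm2663 with 1810009J06Rik reaches 0.34 and 0.42.

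The summed family was most like other enzyme genes. In EYFP negative run 3, the genes outside the set closest to it per cell were Ctrb1 (r = 0.62), Cela1 (0.49), Klk1 (0.46), Pnlip (0.38) and Ctrl (0.36) among 169 genes. Their values in EYFP positive run 3 were 0.42, 0.22, 0.25, 0.14 and 0.35.

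Among the major copies Try5 had the largest variance relative to sampling. Its share of a cell's trypsinogen UMIs had a variance 20.8 times that of multinomial sampling in EYFP negative run 3, 12.3 times in EYFP positive run 3 and 25.9 times in EYFP positive run 1. Prss2 had 4.41, 3.99 and 2.63 times, Try4 9.10, 7.20 and 15.4 times, and 2210010C04Rik 7.51, 2.95 and 3.89 times. In points of share its spread was not the widest. The middle 90% of cells spanned 5.69% to 23.5% for Try5, 17.5% to 39.9% for Try4, 17.1% to 39.7% for 2210010C04Rik and 21.0% to 39.6% for Prss2 in EYFP negative run 3. In EYFP positive run 3 Try5 spanned 6.45% to 23.4% and Try4 18.7% to 40.1%, and Try5 was widest of the 4 in EYFP positive run 1, at 7.43% to 41.5%. Although Try4 and Try5 are 97.1% identical in transcript sequence, their levels per cell had r = 0.02 and 0.06 in the EYFP negative and positive libraries of run 3 and 0.12 in EYFP positive run 1. The Spearman values were 0.20, 0.08 and -0.32, so the sign in EYFP positive run 1 (34 cells) turns with the measure. Their shares, which compete for 1 total, had r = -0.57, -0.63 and -0.74.

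Single cells at the extreme show the range. In EYFP negative run 3, 5 cells had a Try5 share above 50%. The highest, with 6307 UMIs in all, held 851 Try5, 365 Prss2, 38 2210010C04Rik and 3 Try4 UMIs. The second, with 13125 UMIs, held 1445 Try5, 753 Prss2, 35 2210010C04Rik and 7 Try4 UMIs, and also 139 of the 1028 UMIs of 1810009J06Rik and 70 of the 1264 of Gm2663 in the whole library. Another held 610 Try5 and 31 Try4 UMIs. Without these 5 cells the correlation of Try4 and Try5 was 0.32 in place of 0.02, that of Try4 and 2210010C04Rik 0.37 in place of 0.59, and that of Gm2663 and 1810009J06Rik 0.25 in place of 0.34, while Gm5771 and Gm10334 stayed at 0.63. The genes most positively correlated with the Try5 share over all 339 cells were Nupr1 (r = 0.40) and Clu (0.34), and the most negative were Clps (-0.59), Zg16 (-0.57), Rnase1 (-0.56), Tff2 (-0.53), Sycn (-0.51) and Reg1 (-0.49). In EYFP positive run 3 these values were 0.10, 0.26, -0.28, -0.37, -0.30, -0.16, -0.04 and -0.62. Spearman values in EYFP negative run 3 lay between -0.40 (Reg1) and 0.14 (Nupr1), and all 8 were nearer to 0 than Pearson's.

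**Figure D4:**
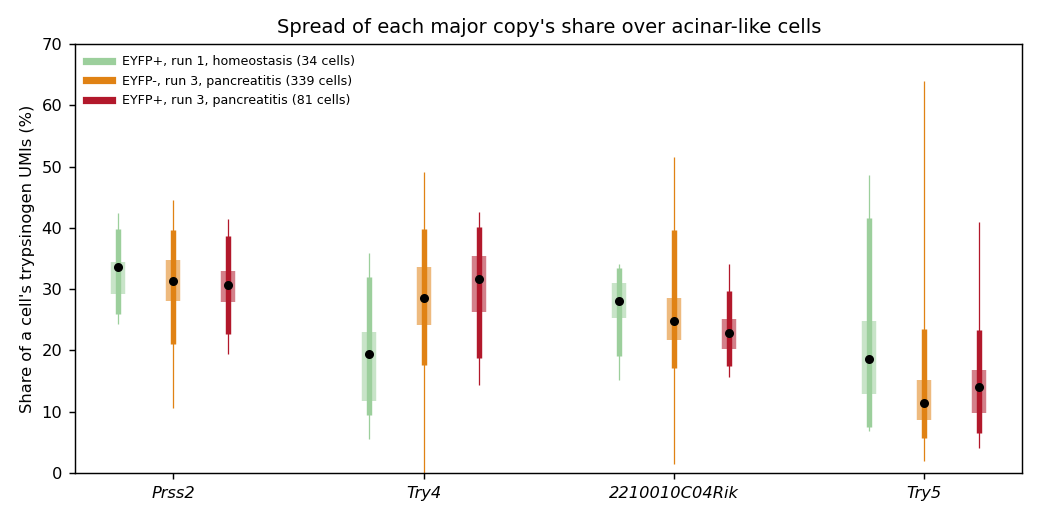
Share of a cell's trypsinogen UMIs held by each of the 4 major copies, over acinar-like cells thinned to 2000 UMIs in the 3 libraries with at least 20 such cells. Dots are medians, wide bars span the middle 50%, narrow bars the middle 90% and thin lines all cells. The Try5 line of EYFP negative run 3 reaches 64.0% while its median is 11.4%.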

How the data were processed

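The authors deposited, per sample, a matrix of UMI counts (not normalized) with gene and barcode lists. Cell Ranger 2.1.0 and GRCh38 are named per the submitters' processing notes, and 3.1.0 per the file headers, although all gene IDs are mouse. The mouse build, the kit and the handling of reads that match several genes are not given in the sources used here. Library totals ran from 1044718 to 23658431 counts, over 220 to 3593 barcodes.

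Barcodes under 200 genes or over 20% mitochondrial counts were left out, as were doublets called by scrublet. Cells were clustered in scanpy 1.11.5 (2000 variable genes without the 10 copies, 30 components, 15 neighbours, resolution 1), and clusters were named from marker lists. The members, the marker and pathway lists and the tests were chosen with earlier results of these data known. Counts were summed per library and class and fitted with edgeR 4.0.16 (quasi-likelihood, TMM, Benjamini-Hochberg over all genes tested, threshold 0.05), with DESeq2 1.42.0 as an alternative. Library n is 6. Self-tests of the fits used counts simulated from the means and spread of these data, and their recovery is not given here. A planned permutation test of each copy's share between acinar-like and other cells is given without p-values, since those levels were in view when the genes were selected. CPM is counts per 1000000 of the class sum, intervals are exact (95%), a count of 0 was set to a floor of 3 counts, and per-cell values were thinned to 2000 UMIs. All 10 members were named, with up to 4 members of lowest p per pathway list and the 5 most similar genes.

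The run numbers in the labels pair the EYFP negative and positive libraries. Over 157 genes the deviations of same-run homeostasis libraries had a correlation of 0.62. Alternatives were other size factors, DESeq2, no low-count filter, stricter cells, another clustering, the larger cluster alone, each library left out, the replicate block and, added after the data were seen, leaving out shared barcodes and dividing by transcript length.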

Additional observations from a re-analysis of the deposited data

Results flagged for a closer look

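The share of Try10 among trypsinogen UMIs was higher in EYFP positive than in EYFP negative acinar-like cells by 0.0985 percentage points in run 1 and by 0.288 in run 2, and differed by -0.0783 in run 3. It drew attention because the sign in the pancreatitis run is opposite to that of both homeostasis runs. The run 1 counting intervals overlap, at 0.0932% to 0.265% (EYFP negative, 16 UMIs over 8 cells) and 0.221% to 0.307% (EYFP positive). In the larger acinar-like cluster alone the run 2 shares were 0.436% (EYFP positive, 9 UMIs in 5 cells) and 0.414% (EYFP negative), so most of the run 2 difference goes with the smaller cluster. The difference between the conditions was not tested.

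T or NK-like cells of EYFP positive run 1 held 37 Gm2663 UMIs, while the acinar-like cells of that library held 0. This is a signal outside the acinar comparison, and 3 cells that also held Trbv31 carried 36 of the 37 UMIs.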

How the results depend on the processing

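The pancreatitis comparison in EYFP positive cells was the result that moved. Its counts of copies carry the limits of selection and filter given above. In place of 0 of 2439 genes and 0 copies, 2 of 2439 genes and 2 copies passed with DESeq2's size factors. With no low-count filter 2 of 12097 genes and 2 copies passed. With DESeq2 13 genes and 4 copies passed, among 840 genes with an adjusted p. In the larger acinar-like cluster alone 11 of 908 genes and 5 copies passed. With 1 library left out, 1250 to 2925 genes were tested. Leaving out each library in turn gave 0 to 365 genes and 0 to 10 copies. The extremes came without EYFP positive homeostasis run 1 (365 and 10), without EYFP positive homeostasis run 2 (21 and 5), without EYFP negative pancreatitis (5 and 3) and without EYFP negative homeostasis run 2 (1 gene). In the EYFP comparison 4 genes passed in the larger cluster alone, and with the run as a replicate block 0 genes passed, so the pairing changed no call there.

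The low copies' share in run 3 moved to 0.979% (EYFP negative) and 1.43% (EYFP positive) with stricter cells, and to 1.15% and 1.68% per transcript length. The acinar-like minus other difference of Try4 (-0.417 percentage points) turned to 0.406 in the larger cluster, to 0.104 without shared barcodes and ran from -1.06 to 0.717 with a library left out. That of Gm5771 (-0.0320) ran from -0.0509 to 0.00605. That of Gm10334 (-0.00338) turned to 0.0305 with stricter cells, 0.0127 with the copies among the variable genes and 0.0451 without ductal-like, endocrine-like and unnamed cells, and ran from -0.0228 to 0.0153. The cause of these moves was not tested. Without thinning, correlations per cell were larger (Gm2663 and 1810009J06Rik 0.69, Try4 and Try5 0.75 in EYFP negative run 3), and thinned to 1000 UMIs some were smaller (in EYFP positive run 3 Gm5771 and Gm10334 0.43 and Gm2663 and 1810009J06Rik 0.22, and in EYFP negative run 3 Try4 and 2210010C04Rik 0.49). Of the remaining values 111 of the comparisons' and 321 of the single genes' stayed on their side, and 26 single-gene values passed the threshold only under an alternative. Homeostasis libraries of 8 to 38 acinar-like cells each limit what could be detected.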
